A study of Mus musculus with 36 samples.

Results

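Fatty acid desaturases put double bonds into fatty acids and elongases lengthen their carbon chain. The mRNA of 10 such enzymes was followed in mouse liver: the desaturases Scd1, Scd2, Fads1, Fads2 and Fads3 and the elongases Elovl1, Elovl2, Elovl3, Elovl5 and Elovl6. A probe was taken when its gene name, or the current name of its accession, was one of these 10. All 10 genes were present among the 13042 named genes of the authors' processed table, with 12 of its 21781 probes, and Elovl5 and Fads3 had 2 probes each. Cross-hybridisation between related genes, such as Scd1 and Scd2, was not tested. Each gene is described by its brightest probe, and its other probe is given beside it.

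The livers came from 36 adult male mice, which all received a mild-high-fat diet with 30% of its energy from fat for an adaptation phase of 3 weeks according to the sample labels. The labels give the strain as C57BL/6J, whereas the study's methods name the substrain C57BL/6JOlaHsd. The baseline group (n = 12) was killed right after the adaptation, at 0 weeks of intervention. The control group (n = 12) continued on the same diet for 12 weeks, and the quercetin group (n = 12) received it with 0.33% (w/w) quercetin, a plant flavonol, for those 12 weeks. Mice were fasted for a few hours before they were killed, and the time of day at which they were killed is not given in the sources used here. RNA of whole liver was used, so fewer cells of a type and less RNA per cell cannot be told apart.

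Scd1 and Scd2 are stearoyl-CoA desaturases, which make monounsaturated from saturated fatty acids, and Scd1 is the main form in the liver. Fads2 and Fads1, the delta-6 and delta-5 desaturases, work in turn with Elovl5 and Elovl2 to make long polyunsaturated fatty acids such as arachidonic and docosahexaenoic acid from the essential fatty acids of the diet. Elovl6 elongates palmitate, Elovl1 and Elovl3 elongate saturated and monounsaturated chains, and the function of Fads3 is the least settled of the Fads enzymes. In the liver of male mice, Elovl3 is known for a strong daily rhythm, whereas Scd1 and Elovl6 are known targets of the lipogenic factor Srebp1c.

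The values are the authors' log2 signals of the liver channel (Cy5), normalised against a reference pool of labelled liver RNA (Cy3) that was present on every array. One unit of this scale is a doubling of the signal, and levels of different probes were not compared with each other. Between 56.4% and 67.4% of the spots of an array were well above background in Cy5, apart from quercetin replicate 2 with 96.7%. The array of control replicate 5 carried pancreas transcripts: the 4 pancreas genes measured (Cpa1, Cela2a, Pnlip and Ctrb1) averaged 18.63 there and 8.88 to 9.52 on the other 35 arrays. The group comparisons and the relations to Arntl below were therefore also obtained without either of these mice. The hepatocyte markers (Alb, Ttr, Apoa1 and Cps1) averaged 16.39 to 17.18 over the 36 arrays. The probes of all 10 genes were well above background in Cy5 on all 36 arrays and saturated on none, although the second Fads3 probe was well above background in Cy3 on 28 arrays only.

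Of the 10 genes, 6 lie on chromosome 19, which holds the Fads1, Fads2 and Fads3 cluster, the Scd cluster and Elovl3. For 6 genes (Fads2, Fads3, Elovl1, Elovl2, Elovl5 and Elovl6) promoter sequence was at hand from RefSeq (build GRCm38.p6, 250 bases before to 50 bases after a transcription start), with 8 promoters in all, whereas none was at hand for Scd1, Scd2, Fads1 and Elovl3. These were searched on both strands for the E-box CACGTG bound by Clock and Arntl, its variant CACGTT, the letters TAGGTCA (a Rev-erb element), TTATGTAA (a D-box bound by Dbp), CCAAT (the NF-Y box) and TCACCCCAC (a sterol regulatory element). The promoters of Elovl5 and Fads3 are shown because these genes are among those that differed between groups below, and letters in capitals mark the matches, the E-box being CACGTG and the others CCAAT or its reverse complement ATTGG.
Elovl5, chr9:77917115-77917414, plus strand: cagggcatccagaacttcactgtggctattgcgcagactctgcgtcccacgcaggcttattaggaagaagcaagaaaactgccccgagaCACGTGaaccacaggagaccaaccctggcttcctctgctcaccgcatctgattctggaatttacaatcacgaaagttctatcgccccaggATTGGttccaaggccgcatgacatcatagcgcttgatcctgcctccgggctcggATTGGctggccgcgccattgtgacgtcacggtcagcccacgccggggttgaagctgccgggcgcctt
Fads3, chr19:10041298-10041597, plus strand: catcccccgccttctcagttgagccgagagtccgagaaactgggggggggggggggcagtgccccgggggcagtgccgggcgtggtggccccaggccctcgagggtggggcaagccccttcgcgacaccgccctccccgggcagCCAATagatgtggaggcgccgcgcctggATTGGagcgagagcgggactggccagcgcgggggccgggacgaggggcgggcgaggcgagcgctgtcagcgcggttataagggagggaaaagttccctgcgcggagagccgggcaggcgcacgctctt
Elovl5 held the E-box with its first base at -161 from the start and CCAAT boxes at -71 and -17. Fads3 held CCAAT boxes at -106 and -78. Of all 32851 promoters of this length, 7.15% held CACGTG, 37.4% CCAAT, 4.68% CACGTT, 2.61% TAGGTCA, 0.938% TTATGTAA and 0.551% TCACCCCAC. Elsewhere among the 8 promoters only a CCAAT box in Elovl1 and a CACGTT in Elovl6 were found.

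The question of the quercetin and control groups is what quercetin added to the same diet. Quercetin-fed mice had significantly less mRNA of 2 of the 10 genes, both elongases: Elovl3 was 2.89-fold and Elovl5 1.45-fold lower, and no desaturase passed the test (limma, adjusted p under 0.05 over all probes). Over all 21781 probes, 2.36% were significant in this comparison and 0.863% were significantly lower in the quercetin group. The difference was below 0 for 9 of the 10 genes with a median of -0.17 on the log2 scale, against a median of 0.013 over all probes.

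Elovl3 (probe A_51_P324633, build mm8, chr19:46188583-46188642) ranged from 13.08 to 15.54 in the control group with a median of 14.83. In the quercetin group it ranged from 11.64 to 14.89 with a median of 13.29. The ranges overlapped, but 11 of the 12 mice given quercetin lay under the median of the controls, with replicate 10 as the exception. The mean log2 level was 13.20 ± 0.83 (SD, n = 12) with quercetin and 14.74 ± 0.72 (SD, n = 12) without, a log2 difference of -1.53 (standard error 0.29, 95% interval -2.13 to -0.94, limma adjusted p = 0.00373). Within slides, each holding arrays of both groups, Elovl3 was lower in the quercetin-fed mice on 8 of 9 slides, with differences from -2.64 to 0.18, and the slide as a block gave -1.41 (adjusted p = 0.0342). Without control replicate 5, which was the lowest control mouse, the log2 difference was -1.68 (adjusted p = 0.000779), and without quercetin replicate 2 it was -1.49 (adjusted p = 0.00762).

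Elovl5 (probe A_51_P505493, build mm8, chr9:77770082-77770141) elongates polyunsaturated fatty acids. It ranged from 14.37 to 15.76 in the control group with a median of 14.98 and from 13.99 to 14.90 in the quercetin group with a median of 14.48. Every mouse given quercetin (12 of 12) lay under the median of the controls, although the groups overlapped. The log2 difference was -0.53 (standard error 0.12, 95% interval -0.79 to -0.28, limma adjusted p = 0.0195), and the second Elovl5 probe gave -0.46 (adjusted p = 0.029). Elovl5 was lower on 8 of 9 slides, with differences from -1.30 to 0.17, but with the slide as a block its log2 difference of -0.49 no longer passed the test (adjusted p = 0.062). When the scanner intensities were only centred on their median it was -0.54 with a standard error of 0.18 and did not pass (adjusted p = 0.209). Without control replicate 5 it was -0.59 (adjusted p = 0.00405).

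The other elongases did not pass the test. Elovl1, an elongase of saturated chains, had a log2 difference of -0.12 (95% interval -0.24 to -0.00, adjusted p = 0.316). Elovl2, which acts on the longest polyunsaturated chains, had -0.14 (95% interval -0.38 to 0.09, adjusted p = 0.569). Elovl6 was at -0.04, and its interval of -0.34 to 0.27 reached to both sides of 0.

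Among the desaturases, Scd1 ranged from 16.59 to 17.88 in the control group with a median of 17.18 and from 15.94 to 17.35 in the quercetin group with a median of 16.84. Its log2 difference was -0.43 (95% interval -0.76 to -0.11), 10 of the 12 mice given quercetin lay under the median of the controls, and it did not remain significant after adjustment (p = 0.0107, limma adjusted p = 0.164). Scd2 had a log2 difference of -0.31 (adjusted p = 0.263), but the control group held 1 mouse far from the others: control replicate 5, the array with pancreas transcripts, was at 10.33, and the other control mice lay between 8.52 and 9.11. Without that mouse the difference was -0.19 (adjusted p = 0.224). The cholangiocyte markers averaged 9.56 in control replicate 5 and 9.25 to 9.95 in the other control mice, and the part of pancreas tissue in its Scd2 value was not tested.

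The polyunsaturated fatty acid desaturases did not pass the test either. Fads1 was the single gene with a positive value (log2 difference 0.09, 95% interval -0.13 to 0.30), and Fads2 had -0.16 (95% interval -0.36 to 0.04). The bright probe of Fads3 gave -0.18 (95% interval -0.31 to -0.06, adjusted p = 0.116) and its dim probe 0.00. With loess normalisation of the scanner intensities, the bright Fads3 probe passed at -0.19 (adjusted p = 0.0224). At an unadjusted p under 0.05, 6 of the 10 genes and 3359 of all 21781 probes differed.

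**Figure D1:**
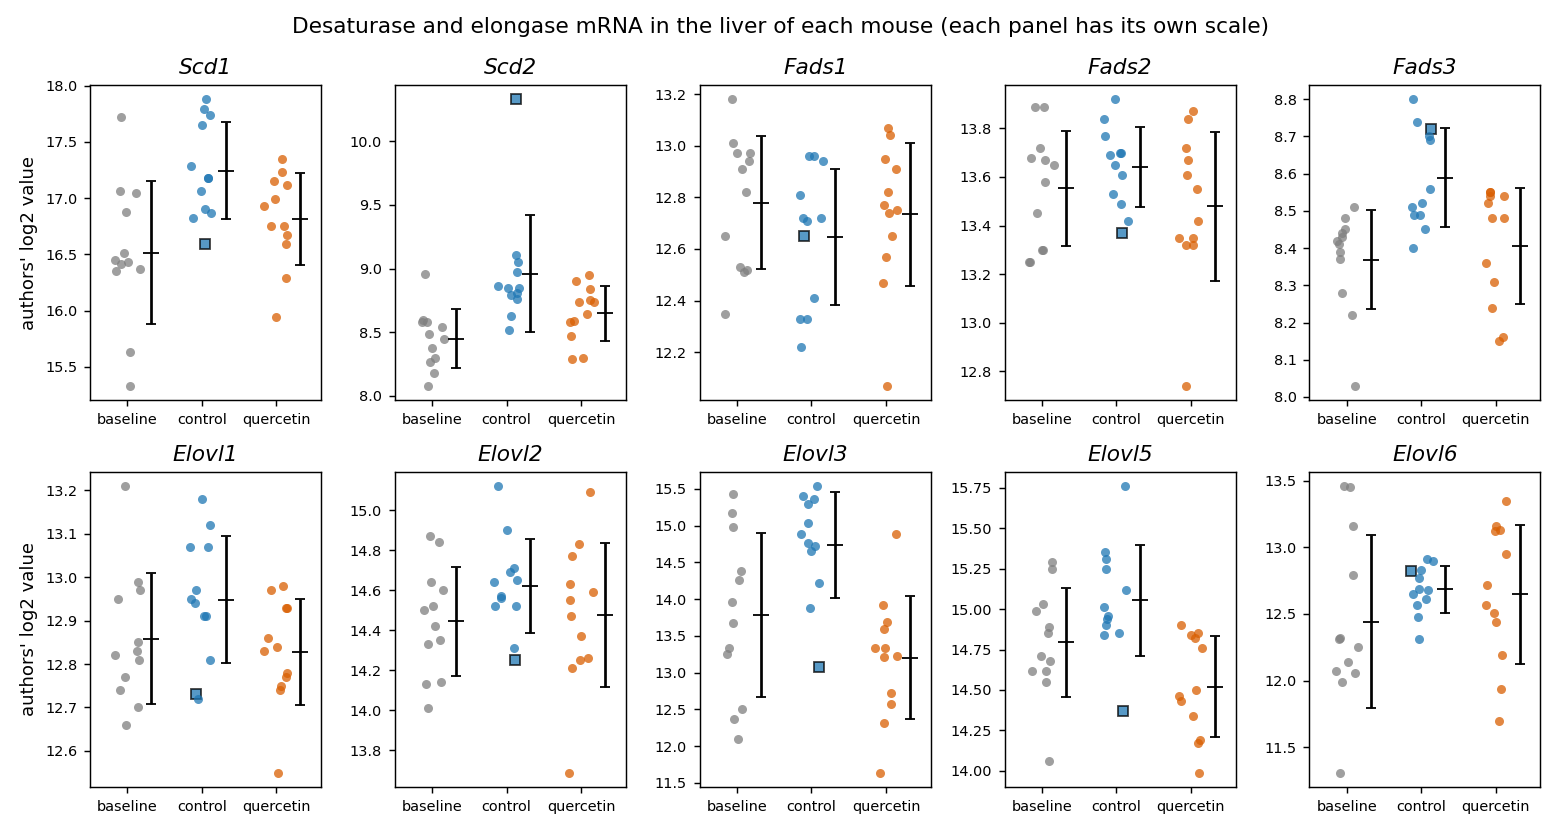
Authors' log2 value (vertical axis, its own scale in each panel) of the 10 genes in each of the 36 mice, by group; the bar beside each group is the mean ± SD (n = 12), and the outlined square is control replicate 5, whose array carried pancreas transcripts. Elovl3 runs from 13.08 to 15.54 in the control group and from 11.64 to 14.89 in the quercetin group, and for Scd2 control replicate 5 stands apart at 10.33.

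Other genes of the pathway were taken from lists, chosen with earlier results of these data known. Elongation and desaturation need further enzymes that reduce and dehydrate the growing chain (Hsd17b12, Hacd1 to Hacd4 and Tecr) and carry electrons (Cyb5a, Cyb5b, Cyb5r1 and Cyb5r3), and none of these 10 was called between the quercetin and control groups, with log2 differences from -0.14 to 0.18. None of the 4 measured relatives (Scd3, Elovl7, Fads6 and Degs1) and none of the 7 genes of fatty acyl activation was called. None of the 6 genes that make the substrate was called, among them Fasn, the fatty acid synthase, at -0.24 (adjusted p = 0.663).

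Among the regulators, 1 was lower in the quercetin-fed mice: Insig2, which retains the Srebp precursors in the endoplasmic reticulum, had a log2 difference of -0.83 (standard error 0.15, adjusted p = 0.00233). Nr1d2 (0.42, adjusted p = 0.0135), a nuclear receptor of the clock, was higher. Srebf1, which encodes Srebp1c, had -0.22 (adjusted p = 0.651). Of 14 measured clock genes, 5 were higher and 2 lower, the latter being Clock (-0.46, adjusted p = 0.00437) and Arntl (-1.0, adjusted p = 0.0034), which encodes the partner of Clock. The higher ones were Nr1d2, Dbp, the repressor genes Per3 (0.42, adjusted p = 0.0134) and Ciart (1.03, adjusted p = 0.0143), and Tef (0.63, adjusted p = 0.00414), a relative of Dbp. Among the markers of other cell types, 1 of 5 endothelial (Pecam1) and 1 of 5 cholangiocyte markers (Sox9) were called, against 2.36% of all probes. The 5 endothelial markers had log2 differences on both sides of 0, from -0.21 to 0.38. The 5 cholangiocyte markers had log2 differences from -0.60 to -0.04, with mean levels of 9.02 to 9.47 in the quercetin group and 9.25 to 9.95 in the control group. Their part in the differences of Elovl3 and Elovl5 was not tested.

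**Figure D2:**
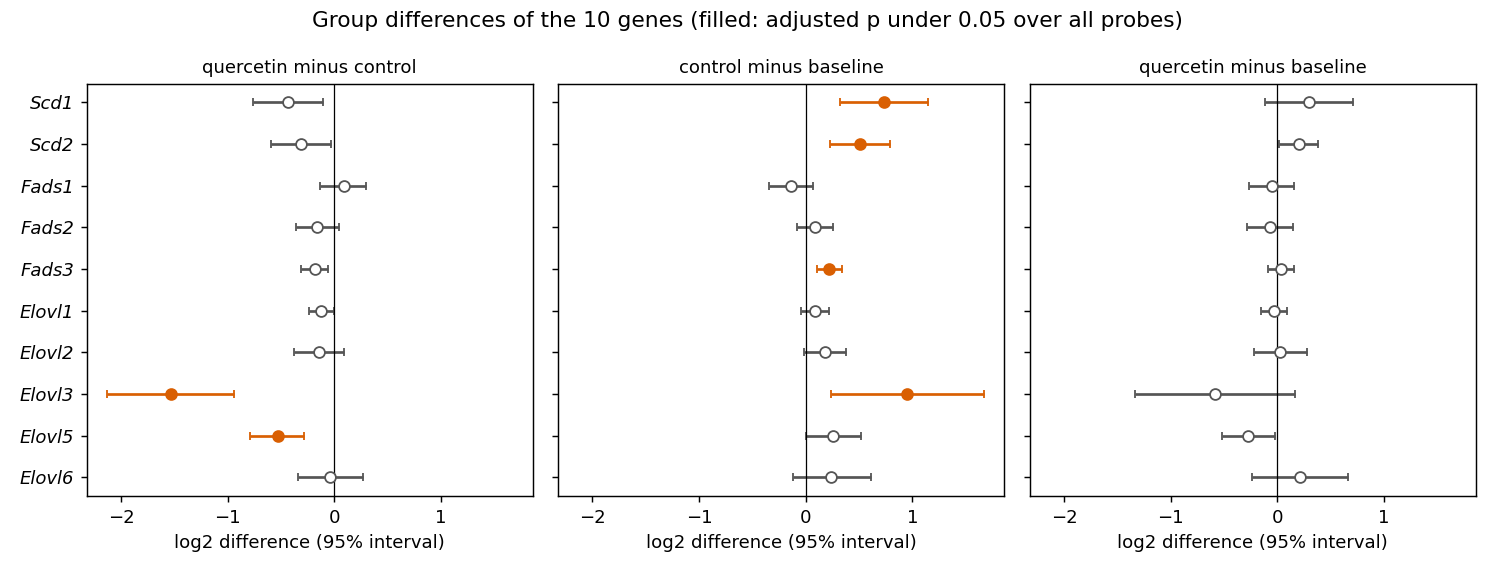
Log2 difference between groups with its 95% interval (horizontal axis) for each of the 10 genes (vertical axis), in 3 panels for quercetin minus control, control minus baseline and quercetin minus baseline; filled orange points passed the test. Elovl3 and Elovl5 are filled to the left of 0 in the quercetin panel, Scd1, Scd2, Fads3 and Elovl3 to the right of 0 in the control minus baseline panel, and none in the last panel.

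The control and baseline groups were compared to see what 12 weeks on the same diet, and 12 weeks of age, changed. Here 4 of the 10 genes were significantly higher in the control group, the desaturases Scd1, Scd2 and Fads3 and the elongase Elovl3, and none was lower. This comparison differed far more widely: 21.3% of all probes were significant, 10.9% higher and 10.4% lower in the control group. The median log2 difference of the 10 genes was 0.23, against -0.005 over all probes, and 9 of the 10 values were above 0.

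Scd1 ranged from 15.33 to 17.72 in the baseline group with a median of 16.44, and all 12 control mice were above that median. Its log2 difference was 0.73 (standard error 0.20, limma adjusted p = 0.0112), or 1.66-fold, and it passed the test under all 18 alternatives tried. Scd2 ranged from 8.08 to 8.96 at baseline with a median of 8.47, and its log2 difference was 0.51 (standard error 0.14, adjusted p = 0.01). Without control replicate 5 the Scd2 difference was smaller, 0.38 (adjusted p = 0.00179), with the test still passed. Fads3 ranged from 8.03 to 8.51 at baseline with a median of 8.41, and differed by 0.22 (standard error 0.06, adjusted p = 0.00681). Its dim probe gave 0.14 (adjusted p = 0.0384).

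Elovl3 differed by 0.95 (standard error 0.35, limma adjusted p = 0.0497), at the limit of the test. With loess normalisation of the scanner intensities it did not pass (0.86, adjusted p = 0.0787), and its call depended on which baseline mice were used. Baseline replicates 1 to 6 were at 13.96 to 15.43 and replicates 7 to 12 at 12.09 to 13.68, so the values of these sets of mice did not overlap. Against replicates 1 to 6 alone the log2 difference of the control group was 0.04 (adjusted p = 0.949), and against replicates 7 to 12 alone it was 1.87 (adjusted p = 0.000387). Scd2 and Fads3 were not significant against replicates 1 to 6 alone (0.39, adjusted p = 0.167, and 0.16, adjusted p = 0.113). Labels do not say what the replicate numbers stand for.

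The remaining genes did not pass. Fads1 had -0.14 and Fads2 0.09, Elovl1 had 0.09 and Elovl2 0.18, and Elovl5 and Elovl6 had 0.26 and 0.24 (lowest adjusted p of these 6 genes 0.147). The second Elovl5 probe gave 0.21 (adjusted p = 0.238). With the slide as a block, Elovl5 passed at 0.33 (adjusted p = 0.0483). In the same comparison, Fasn was higher in the control group by 0.84 (adjusted p = 0.0106), the electron carrier gene Cyb5b by 0.32 (adjusted p = 0.000989), the ceramide desaturase gene Degs1 by 0.19 (adjusted p = 0.00907) and the acyl-CoA synthetase gene Acsl3 by 0.49 (adjusted p = 0.0171). The fatty acid transport gene Slc27a4 was lower (-0.16, adjusted p = 0.0483). The called genes were 1 of the 6 substrate makers, 1 of the 10 elongation and desaturation partners and 1 of the 4 measured relatives. Of the 7 measured acyl activation genes 1 was higher and 1 lower. Over all probes, 21.3% were significant in this comparison. No gene of the 15 regulators was called, and of the 14 clock genes 1 was higher (Nfil3, 0.53) and 2 were lower (Per3 and Bhlhe41, both -0.28).

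Some cell type markers were called as well between these groups, where 21.3% of all probes were called. The cholangiocyte markers Krt19, Krt7 and Sox9 were called, with log2 differences of the 5 markers from 0.16 to 0.64 and mean levels of 8.86 to 9.62 at baseline and 9.25 to 9.95 in the control group. Of the hepatocyte markers 1 of 4 was called (Cps1), and of the endothelial markers 1 of 5 (Pecam1). Of the stellate cell markers 1 of 5 was called (Colec11), and of the erythroid markers 1 of 3 (Hba-a1). These lists held log2 differences on both sides of 0: -0.32 to 0.08, -0.34 to 0.09, -0.08 to 0.19 and -0.14 to 0.93. Kupffer cell markers had log2 differences from 0.11 to 0.82, none of which was called. Their part in the differences of Scd2 and Fads3 was not tested.

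In the quercetin and baseline comparison, which shares the baseline mice with the last one, limma called 0 of the 10 genes, whereas 11.9% of all probes were significant, and the methods' t-test also called 0. At an unadjusted p under 0.05 there were 2 of the 10 genes and 5766 probes. These were Elovl5 with a log2 difference of -0.27 (95% interval -0.52 to -0.02) and Scd2 with 0.20 (95% interval 0.02 to 0.38). The second Elovl5 probe gave -0.25 (95% interval -0.50 to -0.01). Scd1 had 0.30 (95% interval -0.11 to 0.71) and Elovl3 had -0.58 (95% interval -1.33 to 0.17). Elovl3 again depended on the baseline mice, with -1.49 against replicates 1 to 6 (adjusted p = 0.0109) and 0.33 against replicates 7 to 12 (adjusted p = 0.636). Scd2 passed with array weights (0.25, adjusted p = 0.0273). Insig2 was lower than at baseline (-0.67, adjusted p = 0.0114), and 3 regulators in all were called, the others being Scap (-0.25), the escort of Srebp, and Nr1h2 (-0.15), an oxysterol receptor, both lower. No gene of the elongation and desaturation partners, the relatives, the acyl activation genes, the substrate makers or the clock list was called. Of the hepatocyte markers 2 of 4 were called (Ttr and Cps1), with log2 differences of the 4 from -0.45 to 0.02. All 3 measured erythroid markers (Alas2, Hba-a1 and Slc4a1) were called, with log2 differences from -0.26 to 1.21. The part of these markers in the values of the 10 genes was not tested.

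The spread between livers of the same group was wider for these genes than for the typical probe. Probes were not matched for signal level in this, and the part of signal level was not tested. The median SD of the 10 genes was 0.264 log2 units at baseline, 0.249 in control mice and 0.308 in quercetin-fed mice, against 0.162, 0.174 and 0.173 over all probes. Elovl3 varied most in each group, with an SD of 1.12 at baseline, 0.72 for the control group and 0.83 for the quercetin group, larger than that of 99.9%, 99.0% and 99.6% of all probes. From the lowest to the highest mouse it spanned 10.1-fold, 5.49-fold and 9.51-fold.

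Elovl6 was uneven between groups in this respect. Its SD was 0.65 at baseline and 0.52 in the quercetin group but 0.18 in the control group, where the 12 mice lay between 12.31 and 12.91. At baseline they lay between 11.31 and 13.46, and in the quercetin group between 11.70 and 13.35. Fads3 and Elovl1 varied least, with SDs of 0.12 to 0.16 in the 3 groups.

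Single mice held the extremes of several genes at once. Quercetin replicate 4 was the lowest mouse of its group for 8 of the 10 genes, all except Scd2 and Elovl1, and it was the lowest for 17.4% of all probes. Baseline replicate 1 was the highest of its group for 6 genes and for 11.4% of all probes. Control replicate 5 was the lowest of its group for 5 genes and for 17.4% of all probes. Without quercetin replicate 4, Elovl3 and Elovl5 still passed the test against the control group (-1.39, adjusted p = 0.0055, and -0.48, adjusted p = 0.0333).

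**Figure D3:**
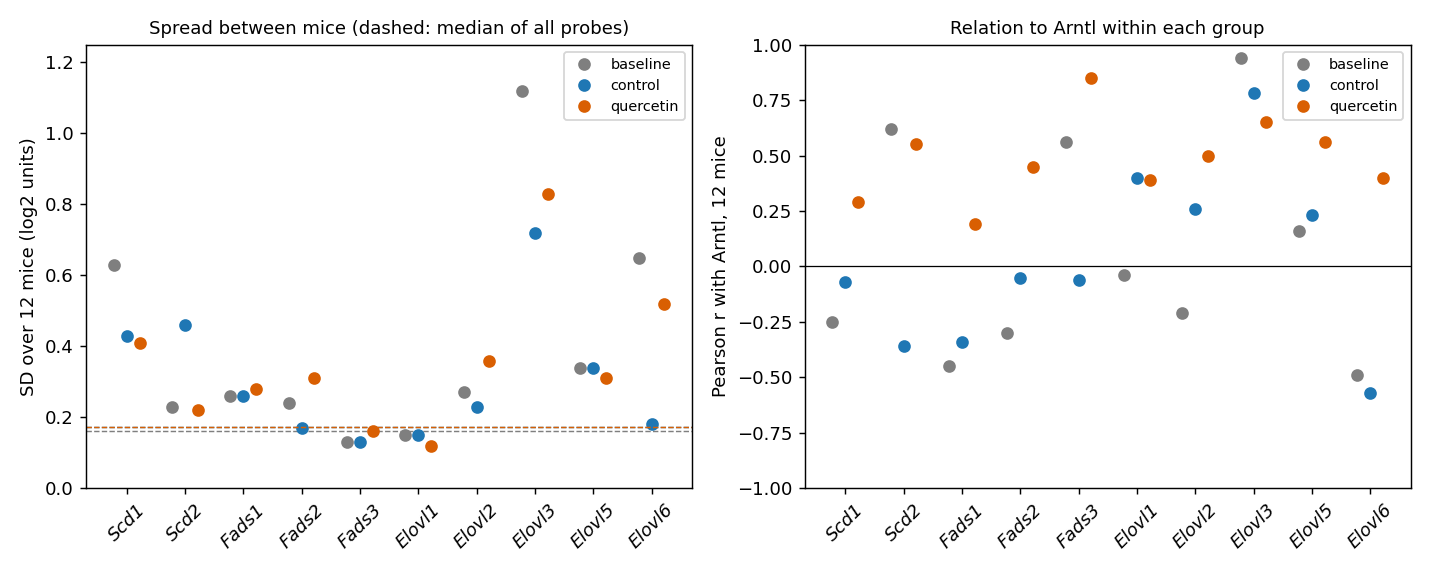
Left, SD over the 12 mice of each group (vertical axis, log2 units) for the 10 genes, with dashed lines at the median SD of all probes in each group (0.162, 0.174 and 0.173); right, Pearson r of each gene with Arntl within each group (vertical axis). Elovl3 has the highest SD in all 3 groups and the r of Elovl3 with Arntl is 0.94, 0.78 and 0.65.

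Arntl encodes Bmal1, a core activator of the circadian clock. It ranged from 7.10 to 9.45 at baseline with a median of 8.11, from 7.80 to 9.23 in the control group with a median of 8.98, and from 6.90 to 8.61 in the quercetin group with a median of 7.81. All 12 mice given quercetin lay under the median of the controls (log2 difference -1.0, standard error 0.19). Dbp, a clock output gene that peaks at another time of day than Arntl, was above the control median in all 12 (0.92, standard error 0.19, adjusted p = 0.00741), and Nr1d1 did not pass the test (-0.00, 95% interval -0.22 to 0.21).

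Within groups, Elovl3 was high in the mice with high Arntl, and it was the only one of the 10 genes whose slope on Arntl passed the test. In the fit over all 36 mice, with the group as a factor, Elovl3 rose by 1.23 log2 units per log2 unit of Arntl (standard error 0.14, limma adjusted p = 2.39e-07). The r after subtraction of group means was 0.83 and rho 0.77, each with a permutation p of 1e-05, the smallest that 100000 permutations give. Of all other probes, 2.4% had a significant slope in this fit. Without the 2 mice farthest in Arntl, r was 0.79. With Dbp in its place, its sign turned, the slope of Elovl3 passed as well, whereas with Nr1d1 in its place, likewise turned, r was -0.26 and the slope did not pass (adjusted p = 0.419).

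In the single groups the r of Elovl3 with Arntl took different values. At baseline r was 0.94 (permutation p = 3e-05) and rho 0.94 (permutation p = 2e-05), with a slope of 1.33 (standard error 0.12, adjusted p = 3.87e-05), where 0.836% of the probes were called. The baseline mice fell apart by replicate number here, since Arntl averaged 8.78 in replicates 1 to 6 and 7.56 in replicates 7 to 12. Taken separately, r was 0.92 in replicates 1 to 6 (exact permutation p = 0.00972) and 0.75 in replicates 7 to 12 (exact permutation p = 0.0875).

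In the control group r was 0.78 (permutation p = 0.00384) and rho 0.81 (permutation p = 0.00206), and without control replicate 5 r was 0.75. In the quercetin group r was 0.65 (permutation p = 0.0231) and rho 0.56 (permutation p = 0.063), and without quercetin replicate 2 r was 0.86. The slopes of 1.22 and 1.01 did not pass the adjustment over all probes (adjusted p = 0.553 and 0.343), and in these groups limma called 3 (0.0138%) and 0 probes, with 959 and 2595 probes at an unadjusted p under 0.05. The Elovl3 slopes were not shown to differ between groups (quercetin minus control -0.21, standard error 0.42, adjusted p = 0.985), a test that called 0.00459% of all probes.

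**Figure D4:**
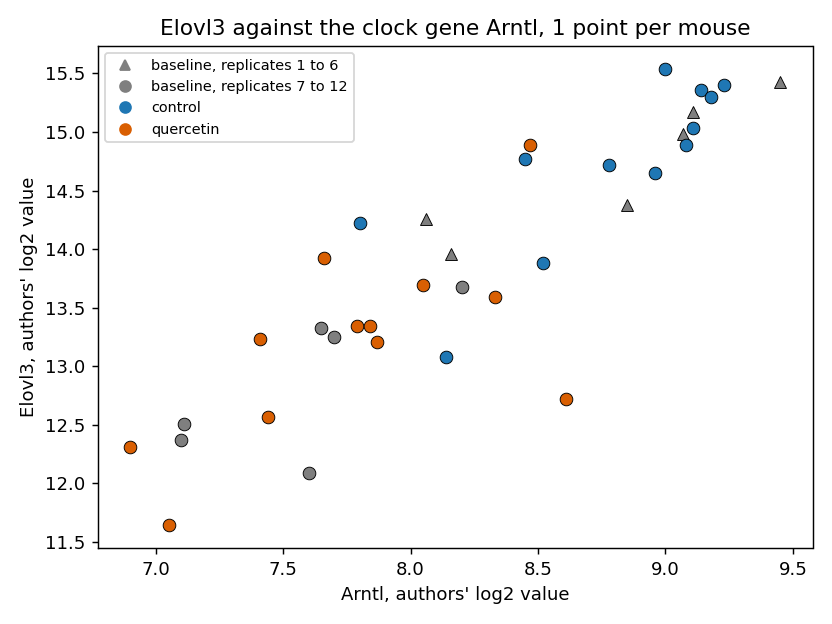
Authors' log2 value of Elovl3 (vertical axis) against that of Arntl (horizontal axis), 1 point per mouse, coloured by group, with triangles for baseline replicates 1 to 6. Points rise together within each group (r of 0.94 at baseline, 0.78 for control and 0.65 for quercetin), and baseline replicates 7 to 12 lie at lower values of both genes than replicates 1 to 6 apart from an overlap in Arntl.

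When Arntl was added to the comparison of quercetin with control, neither gene passed the test: the log2 difference was -0.44 for Elovl3 (adjusted p = 0.512) and -0.27 for Elovl5 (adjusted p = 0.446), and 1 of 21780 probes was called. The diet and the level of Arntl cannot be told apart in this fit, because Arntl itself differed between the groups. In the comparison of control with baseline, Elovl3 likewise had 0.16 with Arntl in the fit (adjusted p = 0.552), while Scd1, Scd2 and Fads3 still passed with 0.83, 0.48 and 0.18 (adjusted p = 0.0124, 0.0352 and 0.0451). With Arntl in the fit, Scd2 was higher in the quercetin group than at baseline (0.27, adjusted p = 0.0219).

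For the other genes no slope on Arntl was called, at 40 relations of gene and Arntl in all (10 genes in 3 groups and in the pooled fit). In the pooled fit r was 0.49 for Fads3 (limma adjusted p = 0.111) and 0.17 for Scd2 (limma adjusted p = 0.629). The dim Fads3 probe gave 0.14 there (limma adjusted p = 0.728). Without control replicate 5, r was 0.54 for the bright Fads3 probe (limma adjusted p = 0.0606) and 0.51 for Scd2 (limma adjusted p = 0.0607). Loess normalisation of the scanner intensities gave 0.27 for Fads3 and 0.10 for Scd2 in this fit. Within single groups Fads3 came nearest, in the quercetin group, with r of 0.85 (permutation p = 0.00038) and rho of 0.88 (permutation p = 0.00052) but an adjusted p of the slope of 0.321, and its dim probe gave r of 0.60. In the control group Fads3 had r of -0.06, and the difference of the slopes was 0.27 (standard error 0.11, adjusted p = 0.973). In the quercetin group all 10 genes had r above 0, from 0.19 for Fads1 to 0.85, whereas r ran from -0.57 to 0.78 in the control and from -0.49 to 0.94 in the baseline group. With loess normalisation of the scanner intensities this was lost in the quercetin group. There r was -0.08 for Fads1, 0.01 for Scd1, 0.06 for Elovl6, 0.43 for Elovl3 and 0.59 for Fads3. With Dbp in place of Arntl, its sign turned, r of Fads3 in the quercetin group was 0.49.

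The lowest r of these groups belonged to Elovl6, with -0.49 at baseline (permutation p = 0.112) and -0.57 in the control group (permutation p = 0.0509). Its rho was -0.62 (permutation p = 0.0341) and -0.43 (permutation p = 0.162), and the slopes did not pass the adjustment (adjusted p = 0.573 at baseline). Without the 2 quercetin-fed mice farthest in Arntl, replicates 9 and 2, r rose from 0.50 to 0.90 for Elovl2 and from 0.56 to 0.85 for Elovl5. The slope of Elovl2 was then called, as were 40 of the 21780 probes, against 0 with all 12 mice. The second Elovl5 probe had r of 0.41 with all 12 mice and 0.81 without these 2. Without replicate 2 alone, r was 0.70 for Elovl2 and 0.87 for Elovl5, and neither slope was called (limma adjusted p = 0.338 and 0.0809). These values of r changed with the mice left out.

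After subtraction of group means, 34 of the 45 pairs of the 10 genes had r above 0 over the 36 mice, with a median of 0.29. These values are a description, since they share arrays and normalisation, and the share for other gene pairs was not computed. Above 0.5 were 10 pairs, all among Scd1, Fads1, Fads2, Elovl2, Elovl5 and Elovl6. The highest were Fads1 with Fads2 (0.72), neighbours on chromosome 19 with consecutive roles, Fads2 with Elovl2 (0.71) and Fads2 with Elovl5 (0.70). Scd1 and Scd2, neighbours as well, had r of -0.16. Control replicate 5 was the lowest control mouse for Scd1 (16.59) and the highest for Scd2 (10.33). Without this mouse Fads1 with Fads2 had r of 0.73. The other pairs are not given without it, so its part in their values of r was not tested.

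Among 13042 genes, those most like each member over the 36 mice were found in the same way. Elovl6 was most like Thrsp (0.81), Fasn (0.79) and Acaca (0.78), genes of fatty acid synthesis, and Scd1 was most like Me1 (0.78), which supplies NADPH for it, Ctf1 and Gbe1 (both 0.76). Fads2 and Elovl5 were both most like Cyb5r3 (0.80 and 0.80), the cytochrome b5 reductase, followed by Cyp4f14 (0.77) and Me1 (0.73) for Fads2 and by Acsl5 and Aqp8 (both 0.76) for Elovl5. Elovl2 was most like Hacd2 (0.82), the dehydratase of the elongation cycle, then Mttp (0.76) and Ociad2 (0.75).

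Elovl3 was most like Insig2 (0.86), Cldn1 (0.85) and Smagp (0.85), and Insig2 was also the regulator that was lower in the quercetin-fed mice. Fads1 was most like Dlat (0.80), Samm50 (0.79) and Tlcd1 (0.76). Fads3 was most like Gpr162 (0.72), Ddah2 and Scgb1a1 (both 0.67), and Elovl1 like Aldoa (0.71), Rab32 (0.67) and Gm2a (0.64). For Scd2 the genes were Itga6 (0.85), Elapor1 and Flna (both 0.84), but without control replicate 5 these fell to 0.66, 0.54 and 0.59.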

How the data were processed

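Liver RNA of 36 mice in 3 groups of 12 was hybridised to 36 Agilent two-colour arrays, with single mice in Cy5 and a pooled reference in Cy3, on 9 slides of 4 arrays that each held all groups. Per the labels, the authors quantified spot intensities with Agilent Feature Extraction 10.5.1.1. The deposited scanner files hold median intensities without normalization. The main results used the log2 values that the authors had processed and deposited (23256 spots). Its scale was recovered from the scanner intensities as log2 of Cy5 over Cy3 plus the mean log2 Cy3 of the spot, without background subtraction and with the same median (8.961) on each array (median absolute difference 0.0192 over 837216 values, lowest correlation 0.9998). The scanner files' processed signals entered alternatives only.

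Spots of a probe were averaged, probes were named by accession or current symbol, and a gene was read from its brightest probe. Groups were compared by limma 3.58.1 (R 4.3.3, two-sided, Benjamini-Hochberg adjustment over all 21781 probes, adjusted p under 0.05, here named a call). The slope on Arntl was tested within groups and, with the group as a factor, over all mice, beside permutation tests of r and rho (100000 permutations, or exact with 6 mice). The 10 genes, the gene lists and the tests were chosen with earlier results of these data known. All 10 genes are named, with the called genes of the lists and the 3 genes most like each. A called gene of the regulator list is not reported here. Probe positions are those of mm8 in the array files. Data were simulated for the comparison of quercetin with control (21781 probes, 100 of them changed at each size). Of the probes given a log2 difference of 0.5, 90% were recovered, as were 100% of those given 1. In these data 14 unchanged probes were called. The rates cover the changed probes together and are not given by SD. The 10 genes had a median SD of 0.249 (control) and 0.308 (quercetin), above the 0.174 and 0.173 of all probes. Recovery of genes as variable as these, such as Scd1 with an SD of 0.43 among control mice, was not tested. Alternatives covered normalization, filters, blocks, weights, single mice and Arntl as a covariate. The number of mice limits the precision, and nothing in the labels says more about the origin of the mice than that each array is a single animal. Figures were drawn with Python and matplotlib.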

Additional observations from a re-analysis of the deposited data

How the results depend on the processing

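For quercetin with control, control with baseline and quercetin with baseline, residuals of same-numbered mice correlated above 0.1 in 3, 4 and 4 of 12 pairs. The medians were -0.01, 0.06 and 0.03 and the highest values 0.15, 0.36 and 0.28. No values of differently numbered mice stand beside these, so they do not show whether mice were paired by number. The fits with the replicate block called 2, 4 and 0 of the 10 genes, as without it. Between the quercetin and control groups 2 genes were called. Only Elovl3, 1 gene, was called with median centring of scanner intensities and with the slide as a block, and 0 with Arntl as a covariate; these settings called 77, 210 and 1 of all probes, against 513. Array weights called 804 probes and the methods' t-test 393, and averaging the probes of a gene called 316 of 15247 features. Elovl6 changed sign at 0.03 with loess on either set of probes, 0.01 with the Feature Extraction signals, 0.05 with array weights and without quercetin replicate 4 (-0.08 without quercetin replicate 2), and 0.09 with Arntl as a covariate, which turned Elovl2 to 0.11. Between control and baseline, 1 gene (Scd1) was called against baseline replicates 1 to 6, with 2304 of all probes against 4645, and no gene changed sign under the 18 alternatives. The call of Elovl3 was lost in 9 of them. Between quercetin and baseline, 1 gene was called with array weights (Scd2), with Arntl as a covariate (Scd2) and against baseline replicates 1 to 6 (Elovl3). All probes called numbered 2596, against 396 with median centring, 4220 with array weights, 1614 with baseline replicates 1 to 6 and 1295 with replicates 7 to 12. In the group comparisons, the sets of baseline mice and the omission of quercetin replicate 4 or control replicate 5 were chosen after seeing the data.

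Sign changes of genes near 0 in that comparison were, with median centring of scanner intensities, Fads1 (0.06), Fads2 (0.05) and Elovl1 (0.07). Array weights gave Fads1 0.01, Fads2 0.03 and Elovl1 0.01, the Feature Extraction signals gave Elovl2 -0.01, and leaving out quercetin replicate 4 gave Fads1 0.01. Baseline replicates 1 to 6 gave Fads1 0.06, Fads2 0.01 and Fads3 -0.03, and replicates 7 to 12 gave Elovl2 -0.05 and Elovl3 0.33. The cause of these changes was not tested.

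For the slope on Arntl, 0 genes were called at baseline with ranks, with Nr1d1 in place of Arntl and in either set of 6 mice. Of all 21780 probes, 0 were called there with ranks and in either set of 6 mice, and 10 with Nr1d1. In the quercetin group 1 gene (Elovl2) was called without the 2 mice farthest in Arntl. Over all 36 mice, 0 of the 10 genes and 122 of all probes were called with Nr1d1. With Nr1d1, its sign turned, r at baseline was -0.02 for Elovl3 and 0.63 for Elovl6. In the control group it was -0.28 for Elovl3 and 0.16 for Fads3, which had 0.09 with Dbp and 0.08 without control replicate 5. In the quercetin group it was -0.55 for Elovl3, -0.36 for Fads3, -0.35 for Elovl2 and -0.44 for Elovl5, and over all 36 mice -0.26 for Elovl3. Of 350 alternative values of r for the 40 relations, 48 had the opposite sign, 29 of them with Nr1d1.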
